A study of Rattus norvegicus with 16 samples.

Results

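The pyramidal layer of hippocampal subfield CA2 was compared with the granular layer of the dentate gyrus (DG) in the comparison CA2vsDG. Its members were the 4 CA2 libraries and the 4 DG libraries, taken by their subfield label, 8 of the 16 libraries in the series. The other 8, from CA1 and CA3, served to find genes that separated CA2, and not CA1 or CA3, from DG. All libraries came from untreated male Wistar rats aged 3 months, 4 in number, whose layers were cut out of Nissl-stained brain sections by laser capture microdissection. CA2 was told from its neighbours by the look and packing of its pyramidal cells and not by a molecular marker. A captured layer is tissue and not a pure cell type, so it also holds the glia, vessels and interneurons that lie between its principal cells.

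CA2 is a small field between CA1 and CA3. Its pyramidal neurons receive input from the entorhinal cortex, the mossy fibres and the hypothalamus, are known for weak long-term potentiation at their inputs from CA3, and matter for social memory. Dentate granule cells are small, densely packed neurons that send mossy fibres to CA3, and new ones are born through adult life under the homeobox factor Prox1.

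Reads had been counted per gene, and a level is given here as counts per 1000000 counts of its library (CPM), with library sizes corrected by the trimmed mean of M values (TMM). Replicates 2 and 4 of CA2 differed by no more than sampling noise (chi-square per degree of freedom 1.0002, against 5.03 to 13.3 for the other CA2 pairs), and so did replicates 2 and 4 of DG apart from a small excess (1.04, against 5.98 to 12.03). Each of these pairs was summed into a combined library and counted as 1 sample, which left n = 3 in CA2 and n = 3 in DG. Values below are given in the order replicate 1, combined library, replicate 3. Library totals ran from 6554905 to 10277598 counts in CA2 and from 4706523 to 14735244 in DG, and 3 counts, the limit that a count of 0 allows, were worth 0.195 to 0.546 CPM in these libraries. Symbols were available for 288 genes, all of them from the marker lists that the study chose on these same libraries, so the directions of these lists against DG are not independent evidence. In bulk tissue, fewer cells of a type and less RNA per cell cannot be told apart.

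Of the 17174 genes tested, 6077 differed in CA2vsDG or 35.4%, taking a Benjamini-Hochberg adjusted p under 0.05 from edgeR's quasi-likelihood fit as the threshold. Of these, 3251 (18.9% of genes tested) were higher in CA2 and 2826 (16.5%) were higher in DG. This small excess on the CA2 side (53.5% of calls) turned round in 4 of the 25 other settings run. It was 3088 against 3136 with the CA2 and DG libraries fitted alone (3763 against 3876 with the replicate number as a block), 2998 against 3054 with no filter on low counts and 2727 against 2784 without DG replicate 1. Most differences were small, with a median log2 fold change of 0.83 among the genes higher in CA2 and of -0.91 among those higher in DG, against a median of 0 over all genes tested. A log2 fold change above 2 was reached by 530 genes higher in CA2, and one below -2 by 533 genes higher in DG. With at least 10 CPM in the higher layer, those strong genes numbered 195 in CA2 and 231 in DG. Every CA2 library lay above every DG library for 4181 genes (24.3%) and below every DG library for 3975 (23.1%), whatever their p. Zero counts in all DG libraries were found for 65 of the genes called higher in CA2, and zero counts in all CA2 libraries for 49 of those called higher in DG.

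**Figure D1:**
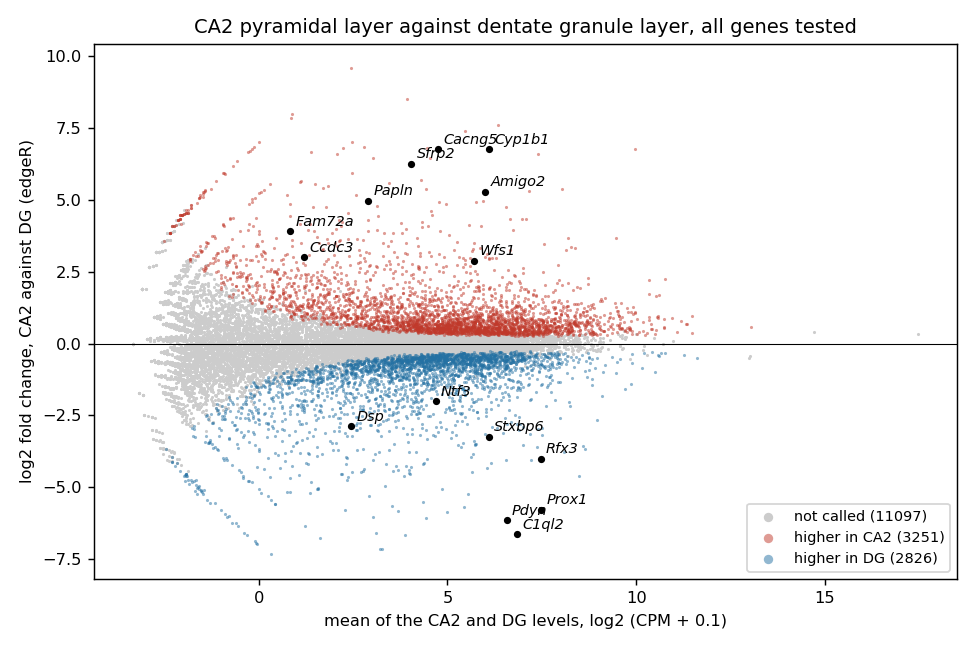
Log2 fold change of CA2 against DG for the 17174 genes tested, against the mean of the CA2 and DG levels as log2 (CPM + 0.1). Red points are the 3251 genes called higher in CA2, blue points the 2826 called higher in DG and grey points the 11097 not called. Black points are labelled genes. Cacng5, Cyp1b1 and Amigo2 lie far above 0 at high level, and Prox1, C1ql2 and Pdyn far below it.

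The captured layers could be set against only part of their defining markers, since a gene had a symbol only if the study had put it on a list. Of 14 known CA2 markers, 4 had a symbol here, and 3 of them (Amigo2, Cacng5 and Ccdc3) were higher in CA2. The other one, Ntf3, went the opposite way and is described with the DG genes. Over all genes tested, 18.9% were called higher in CA2. Those 3 belong to the study's CA2 list and Ntf3 to its DG list, so these directions are no check of the layers. Of 16 known granule cell markers, 11 had a symbol, with a median log2 fold change of -4.05. All 11 belong to the study's DG list, so their direction restates how that list was chosen and is no check of the layers. The summed level of the 14 genes of the study's CA2 list was 344.3 to 453.2 CPM in the CA2 libraries and 6.19 to 7.01 CPM in the DG libraries, and that of its 226 DG genes was 11590 to 12570 CPM in DG and 1103 to 1415 CPM in CA2. No member of the marker lists for astrocytes, oligodendrocytes, their precursors, microglia, endothelium, interneurons or choroid plexus had a symbol, so the share of these cells in the layers was not tested.

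Only 8 of the 195 genes above 2 with at least 10 CPM in CA2 had a symbol, against 119 of the 231 on the DG side. The named genes therefore cannot stand for the strong CA2 side as a whole. Those with the largest excess in CA2 at 10 CPM or more include genes for a cell adhesion protein, an AMPA receptor auxiliary subunit, a cytochrome P450, a Wnt inhibitor and a matrix protein. Amigo2, a leucine-rich repeat adhesion protein of neurons, stood at 152.6, 96.7 and 125.5 CPM in CA2 and at 3.28, 3.18 and 3.11 CPM in DG. Its log2 fold change was 5.29 ± 0.33 (SE; edgeR adjusted p = 7.33e-11). Cacng5, which encodes a transmembrane AMPA receptor regulatory protein, stood at 56.9, 43.8 and 58.9 CPM in CA2 and at 0.182, 0.585 and 0.479 CPM in DG, a log2 fold change of 6.77 ± 0.47 (adjusted p = 2.99e-10). In both genes the layers were far apart, and the combined CA2 library was the lowest of the CA2 libraries.

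Cyp1b1, a cytochrome P450 that oxidises steroids and retinoids, reached 138.1, 112.9 and 156.2 CPM in CA2 against 0.729, 1.10 and 1.80 CPM in DG (log2 fold change 6.76 ± 0.45, edgeR adjusted p = 1.73e-10). All CA2 libraries exceeded all DG libraries by a wide margin. Sfrp2, a secreted frizzled-related protein that binds Wnt ligands, stood at 36.3, 24.1 and 36.8 CPM in CA2 and at 0.364, 0.520 and 0.240 CPM in DG (log2 fold change 6.26 ± 0.48, adjusted p = 1.71e-09). Papln, the extracellular matrix glycoprotein papilin, stood at 9.69, 17.8 and 14.9 CPM in CA2 and at 0.729, 0.520 and 0.120 CPM in DG (log2 fold change 4.97 ± 0.50, adjusted p = 9e-08). Papln was highest in the combined CA2 library, where Sfrp2 was lowest, and neither gene overlapped between the layers. AABR07001734.1, a gene known only by its clone name, had 780 counts in CA2 and 2 in DG, a ratio of 441.9 with a counting interval of 121.9 to 3655 (exact binomial at the 0.95 level, counting error only, edgeR adjusted p = 1.36e-09).

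Among receptors and secreted factors of lower level, several were all but missing from DG. Gabra6, the alpha6 subunit of the GABA-A receptor, stood at 5.63, 5.05 and 4.33 CPM in CA2 and had 1 count in DG, for a ratio of 143.9 (25.4 to 5728). Casr, the extracellular calcium-sensing receptor, stood at 4.85, 2.89 and 4.33 CPM in CA2 with 2 counts in DG, for a ratio of 57.2 (15.4 to 478.9). These ratios carry wide counting intervals because the DG counts are so few. Spp1, which encodes the secreted phosphoprotein osteopontin, had 80 counts in CA2 and 0 in DG and was at least 30.2-fold higher in CA2, taking 3 counts over the DG libraries as the floor. Its CA2 level was uneven, at 5.94 CPM in replicate 1 and 2.17 and 2.16 CPM in the other libraries. Rtl3, a gene derived from a retrotransposon, had 77 counts in CA2 and 2 in DG (ratio 43.6, 11.7 to 366.7).

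All 14 genes of the study's CA2 list were called higher in CA2 than in DG, with a median log2 fold change of 5.45, or 5.26 with Spp1 set at its bound, and in all 14 every CA2 library lay above each of the other 11 libraries. The study picked these genes for being higher in CA2 than in the other subfields on these same libraries, so neither count is independent support. CA1 and CA3 were not empty of these genes: 10 of the 14 were also called higher in CA1 than in DG, and 8 of the 14 higher in CA3 than in DG. Over all genes tested, 29.4% differed between CA1 and DG and 40.2% between CA3 and DG, in either direction. The shares higher in CA1 or in CA3 were not computed, so these counts cannot be called particular to the list. The comparisons CA1vsDG and CA3vsDG use the same DG libraries as CA2vsDG, so their values stand here side by side. Amigo2 had a log2 fold change against DG of 5.29 in CA2, 1.95 in CA1 and 2.65 in CA3. Cacng5 had 6.77 in CA2, 3.66 in CA1 and 2.30 in CA3, and Cyp1b1 had 6.76, 3.97 and 4.14 in the same order.

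**Figure D2:**
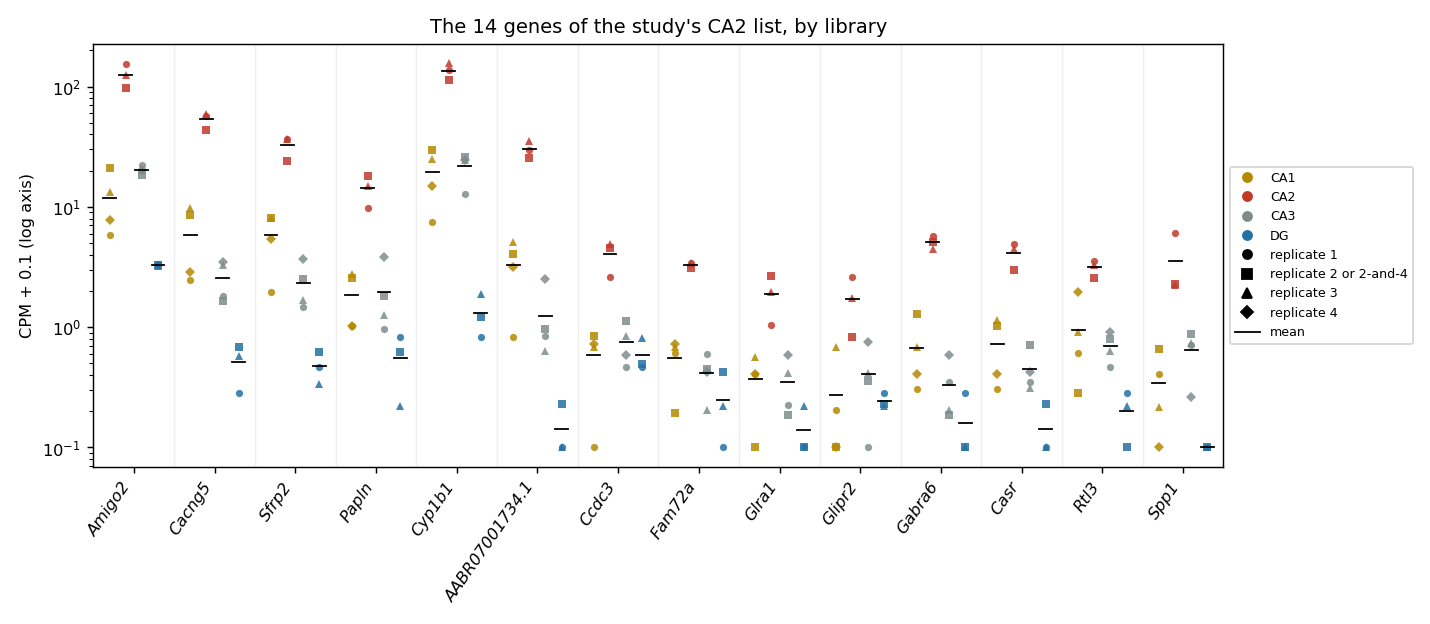
Level (CPM + 0.1, log axis) of the 14 genes of the study's CA2 list in each of the 14 libraries, with colour for the subfield, marker shape for the replicate and a black bar for the mean. The red CA2 points are the highest of every gene; for Amigo2, Cacng5 and Cyp1b1 the CA1 and CA3 points lie between CA2 and DG, whereas for Fam72a and Ccdc3 the CA1, CA3 and DG points share 1 low range.

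To find differences from DG that CA2 had and the other pyramidal layers did not, genes were taken that were called in CA2vsDG and in neither CA1vsDG nor CA3vsDG (called for 29.4% and 40.2% of genes tested). There were 619 such genes, 351 higher in CA2 (2.04%) and 268 higher in DG (1.56%). The numbers rested on single CA2 libraries: without replicate 3 of CA2 there were 407 such genes, 167 of them higher in DG, and without replicate 1 of CA2 there were 224 higher in CA2. Their median absolute log2 fold change was 0.66, against 0.87 for all genes called in CA2vsDG. A p that misses the threshold in CA1 or CA3 does not show that those layers equal DG: 254 of the 619 (41%) had an unadjusted p under 0.05 in CA1vsDG or CA3vsDG, and 479 had CA1vsDG and CA3vsDG estimates on the same side as CA2vsDG. CA2 was therefore also tested against CA1 and against CA3 in the same fit, which is the test of the difference itself. Of the 619 genes, 399 differed from neither, 109 from CA1 only, 35 from CA3 only and 76 from both in the same direction.

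These 76 genes were 60 higher in CA2 (0.349% of genes tested) and 16 lower in CA2 (0.0932%). In 69 of them the CA2 libraries did not overlap any of the 11 other libraries. The genes were picked for differing from DG, CA1 and CA3, so this largely follows from that choice. The share over all genes tested was not computed. Among the 60, 12 had a log2 fold change against DG above 2, 14 lay between 1 and 2 and 34 were at or below 1, and the range was 0.29 to 5.24. Strong and abundant genes were few, since 9 of the 60 exceeded 1 with at least 10 CPM in CA2 and 1 exceeded 2. Among the 16 lower in CA2, 2 lay below -2, 6 between -1 and -2 and 8 nearer to 0, and the range was -0.33 to -2.67. With the replicate number as a block, 28 genes were lower in CA2 in place of 16 and 86 higher in place of 60. The CA2 libraries set the size of this group: without replicate 1 of CA2 it held 42 genes, 38 of them among the 76, and without replicate 3 it held 47, 43 of them among the 76. In every fit that left out 1 library, 20 of the 76 were found.

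**Figure D3:**
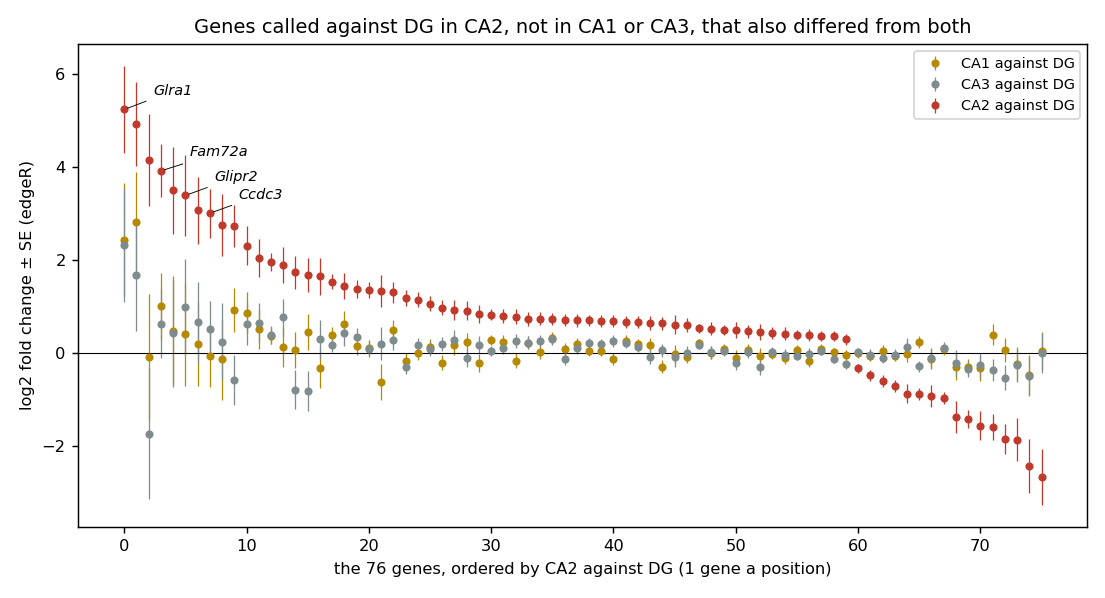
Log2 fold change against DG, with its SE as error bars, of the 76 genes called in CA2vsDG and not in CA1vsDG or CA3vsDG that also differed from CA1 and from CA3, ordered by the CA2 value. Red points (CA2) run from 5.24 to -2.67, and the ochre (CA1) and grey (CA3) points lie below the red point in the 60 genes higher in CA2 and above it in the 16 lower.

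Of the 76, 4 had a symbol, and all 4 belong to the study's CA2 list. Fam72a, whose product controls the level of a uracil DNA glycosylase, was the steadiest. It stood at 3.28, 2.99 and 3.30 CPM in CA2, at 0, 0.325 and 0.120 CPM in DG, at 0.0921 to 0.619 CPM in CA1 and at 0.106 to 0.494 CPM in CA3. CA1, CA3 and DG overlapped each other and none reached CA2. Its log2 fold change against DG was 3.92 ± 0.57 in CA2 (edgeR adjusted p = 1.28e-05), 1.0 ± 0.72 in CA1 (adjusted p = 0.341) and 0.63 ± 0.74 in CA3 (adjusted p = 0.545). CA2 exceeded CA1 by 2.92 ± 0.48 (adjusted p = 0.000171) and CA3 by 3.29 ± 0.49 (adjusted p = 9.01e-05).

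Ccdc3, a secreted coiled-coil protein and a known CA2 marker, stood at 2.50, 4.43 and 4.84 CPM in CA2, at 0.364, 0.390 and 0.719 CPM in DG, at 0 to 0.737 CPM in CA1 and at 0.371 to 1.04 CPM in CA3. Again only CA2 stood apart. Its log2 fold change against DG was 3.005 ± 0.52 in CA2 (edgeR adjusted p = 0.000105), -0.06 ± 0.67 in CA1 (adjusted p = 0.962) and 0.51 ± 0.61 in CA3 (adjusted p = 0.550), and CA2 exceeded CA1 by 3.07 ± 0.49 (adjusted p = 0.000138) and CA3 by 2.50 ± 0.45 (adjusted p = 0.000775). Fam72a and Ccdc3 met the same criteria in all 24 settings that could test them.

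Glra1 and Glipr2 fell under the minimum of 2 CPM for naming and were added after their values were seen. Glra1, the alpha1 subunit of the glycine receptor, stood at 0.938, 2.58 and 1.85 CPM in CA2 and had 1 count in DG, a ratio of 55.5 (9.51 to 2237). CA1 held 0 to 0.464 CPM of it and CA3 0.0864 to 0.486 CPM, and CA2 exceeded CA1 by 2.80 ± 0.65 (edgeR adjusted p = 0.00464) and CA3 by 2.91 ± 0.64 (adjusted p = 0.00514). Glipr2, a protein of the Golgi membrane, stood at 2.50, 0.722 and 1.65 CPM in CA2 and at 0.182, 0.130 and 0.120 CPM in DG (log2 fold change 3.39 ± 0.86, adjusted p = 0.00389). Both rest on few counts: with all libraries thinned to the lowest total, Glipr2 lost its call against DG (edgeR adjusted p = 0.131). Glra1 kept that call (adjusted p = 0.0055) but no longer met all the criteria for genes called in CA2 alone that also differ from CA1 and CA3. In the 14 fits that left out 1 library, Glipr2 missed the criteria in 7 (without CA2 replicate 1 or 3, CA3 replicate 1, 2 or 3, the combined DG library or DG replicate 3) and Glra1 in 2 (without CA1 replicate 2 or the combined CA2 library).

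The 43 of the 60 genes with at least 10 CPM in CA2 have no symbol. The gene ENSRNOG00000045829 stood at 13.9, 12.5 and 13.5 CPM in CA2 and at 1.09, 1.49 and 3.35 CPM in DG, a log2 fold change of 2.73 ± 0.45 (edgeR adjusted p = 5.29e-05), and CA1 (0.619 to 5.99 CPM) and CA3 (0.952 to 2.11 CPM) lay below CA2. The gene ENSRNOG00000025502 stood at 33.0, 39.2 and 36.5 CPM in CA2, at 8.38, 10.1 and 9.10 CPM in DG, and at 9.20 to 16.7 CPM over CA1 and CA3 (log2 fold change against DG 1.96 ± 0.19, adjusted p = 5.97e-08). Lower in CA2 was ENSRNOG00000005206, at 35.3, 62.4 and 50.7 CPM in CA2 against 110.0, 145.1 and 144.9 CPM in DG and 76.6 to 131.9 CPM over CA1 and CA3 (log2 fold change against DG -1.43 ± 0.19, adjusted p = 3.48e-06). ENSRNOG00000058660 was also lower, at 18.8, 6.19 and 11.4 CPM in CA2 against 41.9, 39.5 and 23.6 CPM in DG (-1.57 ± 0.31, adjusted p = 0.000433), but CA1 reached down to 18.2 CPM and so overlapped CA2.

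Promoters are shown for a gene of each kind that the results turn on: Amigo2, higher in CA2 than in every other subfield; Fam72a, raised against DG in CA2 and not called in CA1 or CA3; and Pdyn, among the genes highest in DG. They span 250 bases before to 50 bases after the annotated start, on the gene's strand, from RefSeq on build GRCr8, at chr7:130273686-130273985 (minus strand), chr13:45519690-45519989 (plus strand) and chr3:137366454-137366753 (minus strand). The reads had been counted on an older build. Of the 288 named genes, 201 matched a promoter by symbol. Capitals mark matches on either strand to the letters of a TATA box (TATAAA, found in 14.2% of all 33469 promoters), a GC box (GGGCGG, in 33.1%) or a CCAAT box (in 37.5%), with no overlap between matches of different kinds.
Amigo2: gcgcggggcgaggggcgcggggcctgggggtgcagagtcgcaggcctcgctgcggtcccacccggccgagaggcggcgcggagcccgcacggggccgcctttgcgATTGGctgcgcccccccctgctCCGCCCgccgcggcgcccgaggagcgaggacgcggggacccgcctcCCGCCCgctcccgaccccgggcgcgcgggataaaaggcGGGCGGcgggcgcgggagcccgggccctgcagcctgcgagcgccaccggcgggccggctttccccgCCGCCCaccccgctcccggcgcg
Fam72a: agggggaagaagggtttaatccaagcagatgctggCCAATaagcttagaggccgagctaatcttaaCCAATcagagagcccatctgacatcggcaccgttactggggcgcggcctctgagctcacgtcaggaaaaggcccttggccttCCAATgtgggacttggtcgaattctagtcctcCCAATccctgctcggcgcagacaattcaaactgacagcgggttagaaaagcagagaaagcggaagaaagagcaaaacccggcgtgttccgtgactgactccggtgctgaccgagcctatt
Pdyn: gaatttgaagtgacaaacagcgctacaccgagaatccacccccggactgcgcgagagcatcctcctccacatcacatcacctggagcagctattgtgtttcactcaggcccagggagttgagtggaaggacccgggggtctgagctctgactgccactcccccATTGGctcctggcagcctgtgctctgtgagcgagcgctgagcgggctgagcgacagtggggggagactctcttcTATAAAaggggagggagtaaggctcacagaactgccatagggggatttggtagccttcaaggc
The Amigo2 promoter is rich in C and G and held GGGCGG at 4 places, and 4.64% of all promoters held it at 4 or more. Fam72a held CCAAT at 4 places, and 0.675% of all promoters held it at 4 or more. It had no match to GGGCGG or TATAAA. Pdyn held TATAAA from base -13 to -8 before its start. The matches describe the letters only.

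Of the 30 named genes higher in CA2 than in DG, 14 came from the study's CA2 list, 12 from its CA1 list and 4 from its CA3 list. Of the 34 genes of the CA1 list, 12 were called higher in CA2 than in DG, 22 were not called and none was higher in DG. Over all genes tested, 18.9% were called higher in CA2 and 16.5% higher in DG. The list had a median log2 fold change of 1.03, or 0.94 with genes at 0 set at their bound. With the replicate number as a block 16 were called, the 4 more being Htr5b, Drd5, Cdh6 and Gabrr2. Wfs1, the endoplasmic reticulum protein wolframin, stood at 53.6, 133.8 and 86.8 CPM in CA2 and at 10.4, 11.8 and 14.9 CPM in DG (log2 fold change 2.88 ± 0.63, edgeR adjusted p = 0.00105). Met, the receptor of hepatocyte growth factor, stood at 10.9, 31.3 and 21.7 CPM in CA2 and at 0.364, 0.649 and 0.120 CPM in DG (5.58 ± 0.71, adjusted p = 2.18e-06). In both of these, CA2 replicate 1 was lowest and the combined library highest, and the layers did not overlap.

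Most further genes of that list were also highest in the combined library. Pex5l, an auxiliary subunit of HCN channels, stood at 46.0, 105.4 and 81.9 CPM in CA2 and at 21.5, 24.7 and 29.1 CPM in DG (log2 fold change 1.63 ± 0.23, edgeR adjusted p = 1.02e-05). Arhgap12, a GTPase-activating protein, stood at 57.9, 114.3 and 87.3 CPM in CA2 and at 33.7, 40.1 and 34.0 CPM in DG (1.27 ± 0.24, adjusted p = 0.000229). Ldb2, a cofactor of LIM-domain transcription factors, was the weakest gene of the naming rule, at 17.8, 27.1 and 15.5 CPM in CA2 and 10.7, 10.8 and 11.02 CPM in DG (0.90 ± 0.21, adjusted p = 0.00172), and it was lowest in replicate 3. Lyzl4, a lysozyme-like protein, had 248 counts in CA2 and 2 in DG (ratio 140.5, 38.5 to 1167).

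Of the 12 CA1-list genes with at least 5 CPM in CA2, 10 were highest in the combined CA2 library and 11 were lowest in replicate 1. The same shares over all genes at such levels were not computed, so this order cannot be called particular to the CA1 list. The summed level of all 34 genes was 239.4, 515.5 and 373 CPM in the CA2 libraries, 110.6, 121.8 and 128.8 CPM in the DG libraries and 1994 to 2235 CPM in CA1, and Met and Wfs1, both CA1-list genes, were at 0 in no CA2 library. The part of CA1 tissue in these CA2 values was not tested. Without the combined CA2 library, 10 of the 34 genes were called higher in CA2, with log2 fold changes of 2.48 for Wfs1 and 5.18 for Met (edgeR adjusted p = 0.0059 and 1.3e-05). The 2 calls lost without it were those of Crabp1 (adjusted p = 0.0503) and RGD1563354 (adjusted p = 0.0584). Amigo2 and Cacng5, at 5.42 and 6.87 without it, changed little.

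**Figure D4:**
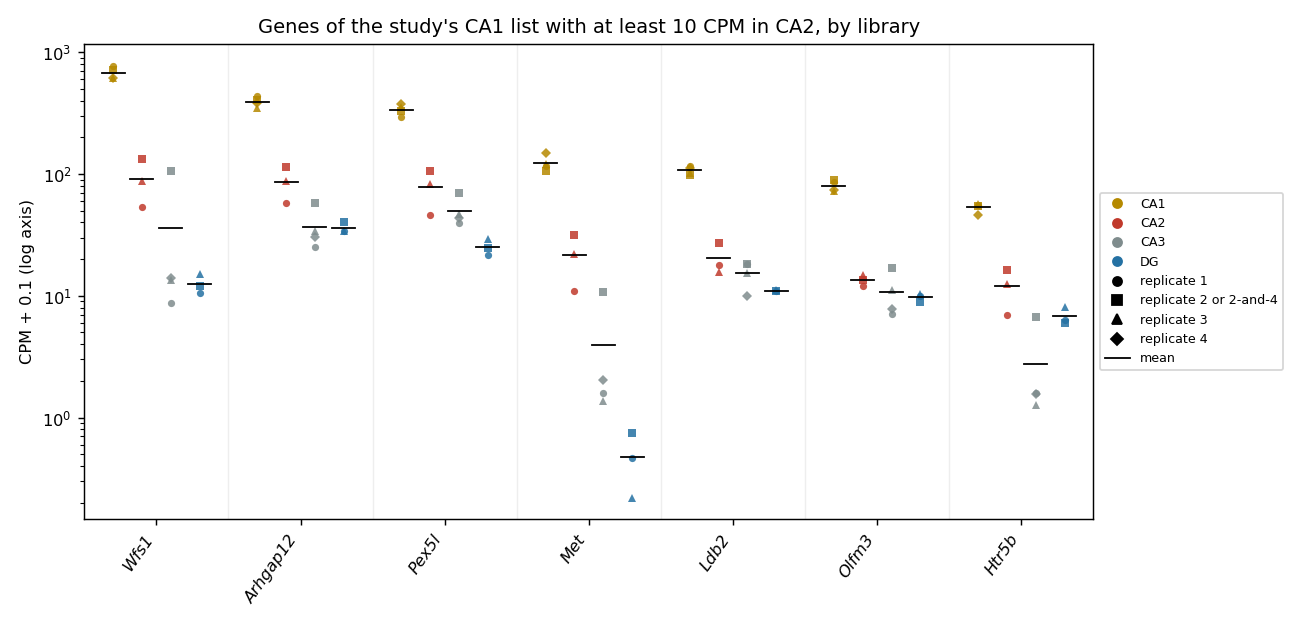
Level (CPM + 0.1, log axis) of the 7 genes of the study's CA1 list with at least 10 CPM in CA2, in each library, with colour for the subfield, marker shape for the replicate and a black bar for the mean. CA1 is highest throughout; among the CA2 points the combined library (square) is highest in 6 of the 7 genes and replicate 1 (circle) lowest in 6.

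From the study's CA3 list of 14 genes, 4 were called higher in CA2 than in DG (18.9% over all genes tested). Of the others, 1 (Vgll3, whose layers overlapped) was called higher in DG (16.5% over all genes tested) and 9 were not called. The list had a median log2 fold change of 0.70, or 0.45 with genes at 0 set at their bound. The call of Vgll3 was lost without CA2 replicate 1 (adjusted p = 0.0574) or the combined DG library (adjusted p = 0.23), and that of Tacr2, the neurokinin 2 receptor, with the highest adjusted p of the 4 (0.0284), without CA2 replicate 3, DG replicate 1 or DG replicate 3 (adjusted p = 0.179, 0.056 and 0.105). Frem3, an extracellular matrix protein, stood at 8.13, 7.12 and 8.96 CPM in CA2 and at 0, 1.04 and 0.479 CPM in DG (log2 fold change 3.57 ± 0.44, edgeR adjusted p = 1.5e-06). It was not called in CA1vsDG (-0.32, adjusted p = 0.78) and had 7.14 in CA3vsDG. Mx1, a GTPase induced by interferon, stood at 11.3, 6.19 and 5.46 CPM in CA2 and at 0, 0.974 and 0.719 CPM in DG (3.38 ± 0.50, adjusted p = 1.69e-05). Gjd2, the gap junction protein connexin 36, stood at 3.60, 3.71 and 3.40 CPM in CA2 and at 0.911, 1.88 and 1.56 CPM in DG (1.18 ± 0.31, adjusted p = 0.00534). Frem3, Mx1 and Gjd2 did not overlap between CA2 and DG. The summed level of the CA3 list was 27.2 to 42.8 CPM in CA2 and 273.9 to 304.2 CPM in CA3.

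On the DG side, all 226 genes of the study's DG list were called higher in DG, with a median log2 fold change of -3.58, or -3.50 with genes at 0 in CA2 set at their bound, and every CA2 library lay below every DG library in all 226. The study picked them for being above the other subfields in these libraries, so the count restates that choice. Their log2 fold changes ran from -7.14 to -1.95: 86 were below -4, 65 between -4 and -3, 73 between -3 and -2 and 2 nearer to 0. Because of this list, 227 of all 288 named genes (78.8%) were called higher in DG. The role groups used below were made after the values were seen, so they serve to order the genes, and a count within one says nothing particular to that role.

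Prox1, the homeobox factor of granule cells, stood at 3.60, 9.59 and 5.15 CPM in CA2 and at 283.4, 366.2 and 395.5 CPM in DG, a log2 fold change of -5.79 ± 0.41 (edgeR adjusted p = 4.76e-10). Rfx3, a winged-helix factor that switches on cilia genes, stood at 14.4, 24.4 and 22.4 CPM in CA2 and at 264.8, 405 and 330.5 CPM in DG (-4.02 ± 0.27, adjusted p = 1.71e-10). Nhlh1, a basic helix-loop-helix factor, had 7 counts in CA2, all in the combined library, and stood at 34.6, 22.5 and 29.5 CPM in DG (-6.66 ± 0.50, adjusted p = 6.66e-09). Prox1, Rfx3 and Nhlh1 were all highest among the CA2 libraries in the combined one. Glis3, a zinc finger factor, stood at 0.313, 1.24 and 1.03 CPM in CA2 and at 15.3, 17.6 and 13.2 CPM in DG (-4.05 ± 0.34, adjusted p = 4.96e-09). Of 23 named transcriptional regulators, 19 (82.6%) were called higher in DG, close to the share among all named genes.

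Peptide precursors and secreted factors followed. Pdyn, which encodes the dynorphin precursor, stood at 2.19, 3.92 and 1.55 CPM in CA2 and at 221.1, 170 and 168.5 CPM in DG (log2 fold change -6.16 ± 0.37, edgeR adjusted p = 4.19e-11). Penk, the enkephalin precursor, stood at 7.82, 6.70 and 5.66 CPM in CA2 and at 47.5, 56.7 and 45.5 CPM in DG (-2.91 ± 0.20, adjusted p = 3.68e-10). C1ql2, a secreted C1q-like organiser of mossy fibre synapses, stood at 0.782, 5.05 and 0.515 CPM in CA2 and at 269.2, 183.6 and 224.5 CPM in DG (-6.64 ± 0.37, adjusted p = 1.6e-11). Both opioid peptide precursors were thus higher in DG, and C1ql2 was uneven within CA2. Kitlg, the ligand of the receptor Kit, and Tgfb2, a transforming growth factor, had log2 fold changes of -3.86 and -3.23, and Fst, the activin antagonist follistatin, had 48 counts in DG and 0 in CA2 and was at least 14.1-fold lower in CA2. Of the 27 listed neuropeptides and growth factors 4 had a symbol (Pdyn, Penk, Cartpt and Ntf3), all 4 from the study's DG list.

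Ntf3, the neurotrophin 3 gene, is a known marker of CA2 among the pyramidal fields. It stood at 11.3, 9.28 and 10.1 CPM in CA2 and at 48.8, 37.0 and 37.5 CPM in DG, so that CA2vsDG gave -2.01 ± 0.18 (edgeR adjusted p = 2.03e-08). Its values against the same DG libraries were -3.89 in CA1 and -3.84 in CA3. The level in CA2 was thus between that of DG and those of the other pyramidal layers.

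**Figure D5:**
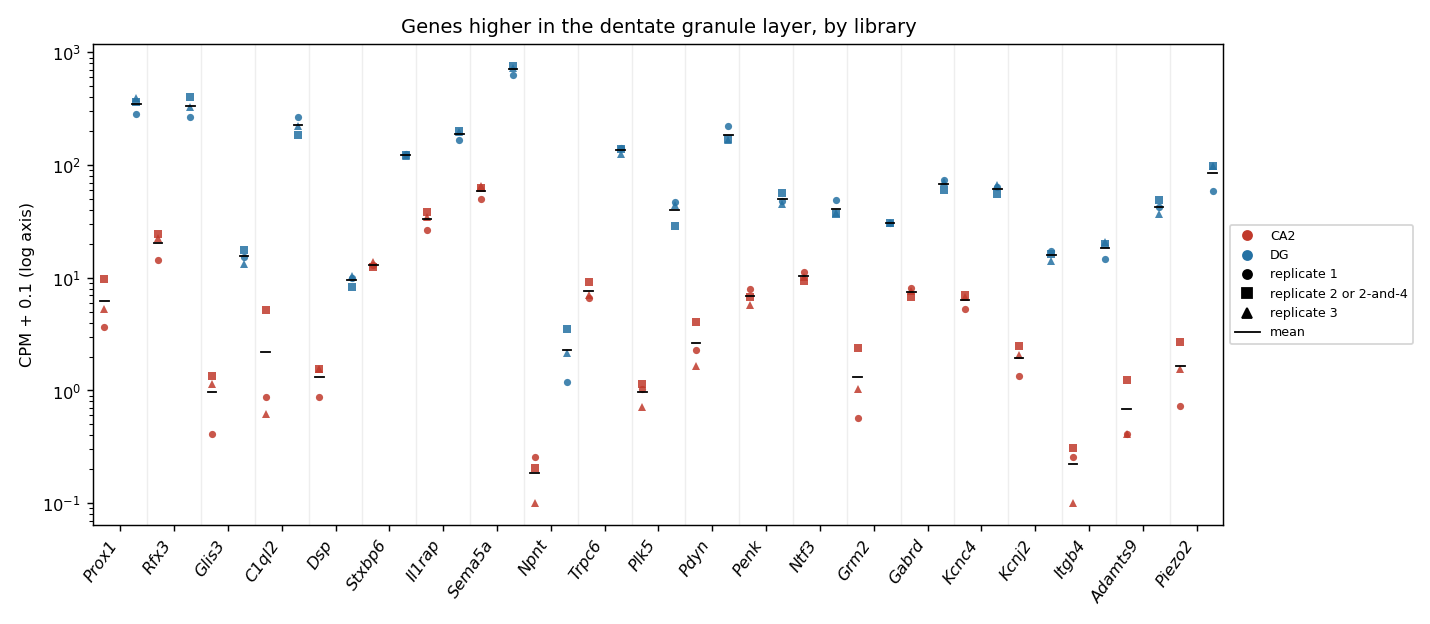
Level (CPM + 0.1, log axis) of 21 genes higher in DG, in each CA2 (red) and DG (blue) library, with marker shape for the replicate and a black bar for the mean. No gene overlaps between the layers; Itgb4 and Npnt are near 0 in CA2, whereas Sema5a, Il1rap and Rfx3 keep 14.4 CPM or more there.

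Channels and receptors came next. Kcnc4 and Kcnj2, a voltage-gated and an inward rectifier potassium channel, had log2 fold changes of -3.28 ± 0.18 and -3.03 ± 0.24 (edgeR adjusted p = 8.18e-12 and 1.85e-09), and with Kcna5 they were the 3 of 45 listed potassium and HCN channels with a symbol, all from the study's DG list. Gabrd, the delta subunit of extrasynaptic GABA-A receptors, stood at 7.97, 6.70 and 7.52 CPM in CA2 and at 73.0, 60.3 and 70.1 CPM in DG (-3.20 ± 0.25, adjusted p = 1.74e-09). The delta subunit was thus on the DG side and the alpha6 subunit, Gabra6, on the CA2 side. Grik3, a kainate receptor subunit, had -2.39 ± 0.21 (adjusted p = 1.05e-08). Trpc6, a calcium-permeable cation channel, stood at 6.57, 9.08 and 6.90 CPM in CA2 and at 140.6, 139 and 125.4 CPM in DG (-4.15 ± 0.19, adjusted p = 1.16e-12). Piezo2, a mechanosensitive channel, stood at 0.625, 2.58 and 1.44 CPM in CA2 and at 58.6, 97.3 and 99.0 CPM in DG (-5.69 ± 0.42, adjusted p = 8.68e-10).

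Of 49 listed modulatory receptors, 7 had a symbol. Grm2 and Drd1, from the study's DG list, were higher in DG. Casr, from its CA2 list, and Htr1b, from its CA1 list, were higher in CA2. Drd5, Galr1 and Htr5b, also from the CA1 list, were not called. Over all genes tested, 18.9% were called higher in CA2 and 16.5% higher in DG. Symbols came only through these lists, so the split says nothing of modulatory receptors as a class. Grm2, a presynaptic metabotropic glutamate receptor, stood at 0.469, 2.27 and 0.927 CPM in CA2 and at 30.8, 30.6 and 30.4 CPM in DG (log2 fold change -4.54 ± 0.39, edgeR adjusted p = 9.28e-09). Drd1, the dopamine D1 receptor, stood at 1.88, 2.68 and 2.16 CPM in CA2 and at 9.11, 8.83 and 9.22 CPM in DG (-1.99 ± 0.23, adjusted p = 7.05e-07). Htr1b, a serotonin receptor, stood at 3.75, 9.49 and 6.69 CPM in CA2 and at 0.729, 1.56 and 0.958 CPM in DG (2.49 ± 0.58, adjusted p = 0.00186), and it is a CA1-list gene with the uneven CA2 levels described above. With the replicate number as a block, Htr5b and Drd5 were also called higher in CA2 (adjusted p = 0.0271 and 0.0455, against 0.0745 and 0.0545 without it). Trhr, the receptor of thyrotropin-releasing hormone, had -4.51.

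Of 14 named adhesion and guidance genes 12 (85.7%) were called higher in DG, and of 15 named matrix genes 12 (80%), against 78.8% of all named genes. Sema5a, a guidance protein with both attractive and repulsive action, stood at 49.7, 62.1 and 64.8 CPM in CA2 and at 624.9, 760.2 and 732.5 CPM in DG (log2 fold change -3.58 ± 0.17, edgeR adjusted p = 2.19e-12). Unc5d, a netrin receptor, and Cdh13, a cadherin anchored by a lipid, had -2.90 ± 0.19 and -3.17 ± 0.14 (adjusted p = 1.42e-10 and 7.81e-13). Lrrtm4, a postsynaptic organiser that binds heparan sulfate, had -2.79 ± 0.14 (adjusted p = 4.17e-12). Of 59 listed adhesion genes 5 had a symbol: Amigo2 was higher in CA2, Cdh13, Cntn5 and Lrrtm4 higher in DG, and Cdh6 not called (adjusted p = 0.0502, and 0.0121 with the replicate number as a block). Itgb4, the integrin beta4 chain, had 558 counts in DG and 3 in CA2 (ratio 164.1, 55.9 to 798.4), and stood at 14.6, 19.9 and 20.5 CPM in DG.

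The DG list also held 5 genes known from epithelial junctions. Dsp, the desmosome protein desmoplakin, stood at 0.782, 1.44 and 1.44 CPM in CA2 and at 9.84, 8.25 and 10.2 CPM in DG (log2 fold change -2.87 ± 0.32, edgeR adjusted p = 2.98e-07). Ppl, Perp, Cldn1 and Marveld2, of desmosomes and tight junctions, had -4.40, -4.18, -4.43 and -4.43. In no CA2 library did any of them exceed 2.37 CPM, the level of Perp in replicate 3, and in no DG library did any fall below 8.25 CPM. Adamts9, a matrix metalloprotease, stood at 0.313, 1.13 and 0.309 CPM in CA2 and at 42.1, 48.8 and 36.6 CPM in DG (-6.08 ± 0.35, adjusted p = 2.42e-11). Gpc3, a heparan sulfate proteoglycan of the membrane, and Col11a1, a fibrillar collagen, had -5.23 and -4.02. Tnc, which encodes the matrix protein tenascin C, had -2.51 ± 0.36 (adjusted p = 1.07e-05), and Npnt, the integrin ligand nephronectin, had 75 counts in DG and 2 in CA2 (ratio 33.1, 8.85 to 278.3).

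The DG list held 9 genes of G protein and cyclic nucleotide signalling. Rgs10 and Rgs9, which speed the shutdown of G protein signals, had log2 fold changes of -3.55 ± 0.15 and -3.05 ± 0.27 (edgeR adjusted p = 2.72e-13 and 1.49e-08). Rgs10 stood at 22.2, 18.1 and 20.0 CPM in CA2 and at 266.5, 232.8 and 205.4 CPM in DG. Adcy1, a calmodulin-stimulated adenylyl cyclase, was abundant in both layers, at 113.8, 150.1 and 140.5 CPM in CA2 and 761.4, 891.8 and 943.3 CPM in DG (-2.68 ± 0.26, adjusted p = 5.17e-08). Gnal, a stimulatory G protein subunit, and Pde1b, a cyclic nucleotide phosphodiesterase, had -3.51 and -2.74.

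Synaptic and other granule cell genes filled the remainder. Stxbp6, a syntaxin-binding protein, stood at 12.8, 12.3 and 13.8 CPM in CA2 and at 126, 122.7 and 119.8 CPM in DG (log2 fold change -3.24 ± 0.15, edgeR adjusted p = 1.35e-12). Il1rap, the interleukin 1 receptor accessory protein, stood at 26.6, 38.4 and 34.2 CPM in CA2 and at 166.3, 201.4 and 195.5 CPM in DG (-2.50 ± 0.15, adjusted p = 5.23e-11). Plk5, a polo-like kinase of neurons, stood at 0.938, 1.03 and 0.618 CPM in CA2 and at 47.2, 28.5 and 44.1 CPM in DG (-5.51 ± 0.32, adjusted p = 2.73e-11). Unc13c, a vesicle priming protein, had -4.26 ± 0.43 (adjusted p = 1.03e-07) in CA2vsDG, -4.47 in CA1vsDG and -0.73 in CA3vsDG (adjusted p = 0.0548). CA1 and CA2 thus lay far below DG for Unc13c, while CA3 did not pass the test. Btg2, an early-response gene that slows cell division, had -2.53 ± 0.29 (adjusted p = 4.68e-07).

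The rest of the 12 strongest DG genes, among those with a symbol and at least 10 CPM, were less familiar. Lnp1 had 528 counts in DG and 3 in CA2 (ratio 155.3, 52.9 to 755.6). Lrrc3b, a leucine-rich repeat membrane protein, stood at 0.313, 0.206 and 0 CPM in CA2 and at 19.8, 15.5 and 15.0 CPM in DG (log2 fold change -6.61 ± 0.48, edgeR adjusted p = 6.4e-10), and Mgam, the maltase-glucoamylase of the gut, had -5.88 ± 0.42 (adjusted p = 4.24e-10). AABR07060341.2 and AABR07060341.3, at -5.84 and -6.04, are named for the same clone, and how reads shared by near-identical copies were counted is not given in the sources used here, so their separate levels are uncertain. Summed over its 226 genes, the DG list was highest among the CA2 libraries in the combined one, at 1415 CPM against 1103 and 1260 CPM. Of the 226 genes, 125 were highest there. The share of all genes tested that were highest there was not computed, so the 125 cannot be called particular to the list. Among the CA2 libraries, the combined one also held the most of the CA1 list. The part of tissue from other layers in these levels was not tested.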

How the data were processed

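The authors extracted RNA from laser-captured layers of 4 male Wistar rats, made stranded total RNA libraries, used STAR for alignment (rat genome Rnor6) and deposited raw read counts per Ensembl gene. The counting program and its strand setting are not given in the sources used here, so overlapping and antisense genes are uncertain. The authors' tables of DESeq2 comparisons (fold changes and p-values) were not used, nor were the mouse data or enrichments. All 16 columns of counts matched a sample (0 unmatched). 

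Genes whose counts over the 14 libraries came to more than 10 were fitted with edgeR 4.0.16 (limma 3.58.1, R 4.3.3), with TMM scaling, 1 coefficient per subfield, quasi-likelihood tests and Benjamini-Hochberg adjustment over all genes. All subfields entered the fit and shared its dispersion (common value 0.01888). SEs are the absolute log2 fold change divided by the square root of F. Ratios against 1 to 3 counts carry exact binomial 95% intervals, and against 0 counts use a floor of 3 counts over the group. PCR copies are not independent, so these cover counting error only. Alternatives included DESeq2 1.42.0, other filters and scalings, thinning, and leaving out each library.

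The methods describe 4 rats, and the labels give only replicate numbers, so the rat behind a repeated pair is unknown and p-values measure the spread between these samples. Deviations from the group means of same-numbered CA2 and DG libraries correlated at 0.637, 0.247 and 0.156 over 8807 genes (different numbers -0.501 to 0.366). Each same-number value was over 0.1, the limit set for taking the numbers to pair the samples, but the pairing is in doubt: the combined CA2 library correlated better with DG replicate 3 (0.366) than with the combined DG library, and CA2 replicate 3 better with the combined DG library (0.351) than with DG replicate 3. Deviations within 3 libraries per layer depend on each other, so these correlations cannot settle the pairing. Therefore a fit with the replicate number as a block was run only as an alternative. That block lowered the common dispersion from 0.01888 to 0.01019. If the numbers do pair the samples, the p-values of the main fit leave that pairing out.

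Named genes were the 12 per direction with the largest change among those called with a symbol and at least 10 CPM (11 qualified in CA2). Next came genes called against DG in CA2 alone that also differed from CA1 and CA3, with at least 2 CPM. The 2 smallest p values per direction of each list, and all CA2 and granule markers, completed the rule. Other genes named, and role groups, were chosen after their values were seen. Of 29 gene lists, 14 had no named member, 8 had 1 or 2 and 7 had 3 or more. The members and lists were chosen with earlier results of these data known. The procedure was tested on simulated counts. Some results are not reported here. Plots used matplotlib 3.10.9.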

Additional observations from a re-analysis of the deposited data

Results flagged for a closer look

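The difference between CA2vsDG and each of the other contrasts with DG was tested as CA2 against CA1 and CA2 against CA3, and 76 genes passed both with no call in CA1vsDG or CA3vsDG. For Fam72a, the CA2vsDG log2 fold change exceeded that of CA1vsDG by 2.92 and that of CA3vsDG by 3.29. The same differences were 3.07 and 2.50 for Ccdc3, 2.80 and 2.91 for Glra1, and 2.99 and 2.40 for Glipr2. Passing both tests was the condition for entering the 76, so that these named genes passed is no further support. All of them also come from the study's CA2 list, which was chosen on these same libraries.

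In the groups of 4 libraries, 36 values were looked at for a library far from the others, and 2 stood out, where chance gives about 1 in 20. Cyp1b1 was at 12.7 CPM in CA3 replicate 1 and at 24.5 to 25.7 CPM in the other CA3 libraries. The summed level of the study's CA1 list was 336 CPM in CA3 replicate 2 and 122.7 to 146.2 CPM in the other CA3 libraries. Without that library, 17 of the 34 CA1-list genes were called higher in CA2 than in DG, in place of 12.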

How the results depend on the processing

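No gene named here changed sign while called, but the balance of calls did turn: the share higher in CA2 ran from 49.3% to 53.5% and fell below that higher in DG in 4 of 25 settings. CA2vsDG called 6077 genes, and 5059 to 6308 without 1 library (2588 to 3347 higher in CA2, 2440 to 3078 higher in DG), 5881 by DESeq2, 6106 with median-of-ratios scaling, 6042 with edgeR's own filter, 6052 with no filter and 5019 with libraries thinned to the lowest total. Genes called in CA2 alone numbered 407 to 767 without 1 library (224 to 409 higher in CA2, 167 to 376 higher in DG), and those that also differed from CA1 and CA3 42 to 82 (32 to 63 higher, 10 to 20 lower), against 52 when thinned. The lowest counts came without CA2 replicate 1 (224 alone and higher in CA2, 42 also different, 32 higher, 10 lower) and without CA2 replicate 3 (407 alone, 167 of them higher in DG, 47 also different, 36 higher). The 16 genes lower in CA2 became 25 with all 16 libraries kept apart and 25 with no filter. The cause was not tested.

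With the replicate number as a block, 7135 genes were called, 114 also differed and 28 of these were lower in CA2. With the block and all 16 libraries, 128 also differed, 42 of them lower. Among the 288 named genes the block changed the calls of Htr5b, Drd5, Cdh6 and Gabrr2 (adjusted p = 0.0456, against 0.0638) and no other.

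Fits of CA2 and DG alone gave 6224 calls (7639 with the block) and could not give the counts that need CA1 and CA3. Low counts limit Glra1 and Glipr2, which edgeR's filter removed. Of the 257 named genes called, thinning ended 8 calls (Glipr2, Epgn, RGD1563354, Crabp1, Vgll3, Tacr2, Fsip1 and AABR07008724.1) and left 5 genes untested. DESeq2 ended 1 (LOC102548534) and gave 3 no adjusted p, and edgeR's filter removed 20. Without 1 library, Vgll3, Tacr2, RGD1563354, Crabp1, Epgn (adjusted p = 0.0546 without the combined DG library) and AABR07008724.1 (0.0737 without it) lost their calls in at least 1 fit. All alternatives were judged at the same threshold.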
